A study of Homo sapiens with 21 samples.

Results

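The genes described here are 9 genes of transforming growth factor beta (TGF-beta) signalling and of the ID family in HCC1806, an established human triple-negative breast cancer cell line. They are TGFB1, TGFB2, INHBA, TGFBR2, TGFBI, SMAD7, ID1, ID2 and ID3. They were chosen by symbol, for their known roles, as the rows of both deposited count tables whose Ensembl identifier maps to those symbols. The 9 genes stand among 60668 genes listed in each table, and all 9 passed the filter on low counts in both tables.

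RNA was sequenced from HCC1806 cells grown in a monolayer, in 21 libraries that fall into 7 groups of 3. The first table holds the control 3xCTL, the line 3xSR, labelled for overexpression of 3 genes at once (SRSF2, SRSF3 and SRSF7), and the line MYC-OE, labelled as overexpressing MYC. The second table holds the control 1xCtrl and 3 lines that are each labelled as overexpressing 1 splicing factor, SRSF2-OE, SRSF3-OE and SRSF7-OE. SRSF2, SRSF3 and SRSF7 are serine/arginine-rich splicing factors, and MYC is a transcription factor. Both controls carry the genotype label control, the labels name no vector or promoter, and they do not say whether a line is 1 clone. They do not state either whether the 3 libraries of a group came from separate cultures, so every p-value below measures only the spread between these libraries, which may be technical.

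TGF-beta and activin ligands bind pairs of serine/threonine kinase receptors, which phosphorylate SMAD2 and SMAD3. The SMADs then enter the nucleus with SMAD4 and switch target genes on or off, among them the inhibitory SMAD7, which feeds back on the receptors. Bone morphogenetic proteins act through SMAD1 and SMAD5, and the ID genes are well-known targets of that branch. ID proteins lack a DNA-binding region and hold E proteins, a class of transcription factors, in inactive pairs. In normal mammary epithelium TGF-beta restrains growth, while in advanced breast cancers it is known for promoting invasion.

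The targeted genes were examined first, since they check the labels. In edgeR's quasi-likelihood test, SRSF2 differed by -0.16 (log2 fold change, adjusted p = 0.098) in the libraries labelled SRSF2-OE and by -0.064 (adjusted p = 0.389) in those labelled 3xSR, so its total level was called higher in neither. It was called lower in the libraries labelled SRSF2-OE in 8 of 13 alternative analyses, among them with the GC trend of each library, its dependence of counts on GC content, removed (-0.19, adjusted p = 0.00516) and without replicate 2 of 1xCtrl (-0.21, adjusted p = 0.00951). In those labelled 3xSR it was called lower in 1 of 13, with the GC trend removed (-0.12, adjusted p = 0.0336). SRSF3 rose by 0.31 and SRSF7 by 0.44 in the libraries labelled 3xSR, SRSF3 rose by 0.49 in SRSF3-OE, SRSF7 by 0.26 in SRSF7-OE and MYC by 0.90 in MYC-OE. The value of SRSF3 in the libraries labelled 3xSR was 0.17 with the GC trend removed. Targeted genes also moved in lines not labelled for them. MYC was 0.75 higher in the libraries labelled 3xSR, 0.26 higher in SRSF3-OE and 0.27 higher in SRSF7-OE. In the libraries labelled SRSF2-OE, SRSF3 was 0.30 and SRSF7 0.24 higher, and SRSF7 there did not differ by the test from its level in SRSF7-OE (-0.023, SE 0.0549, adjusted p = 0.812). SRSF2 fell by 0.38 in SRSF7-OE and by 0.48 in MYC-OE. Total counts ranged from 143269192 to 303323552 per library. Replicates of a group differed beyond sampling noise, their chi-square statistic running from 17.1 to 302 for each degree of freedom. Markers of basal breast epithelium summed to 5101 to 6146 CPM (counts scaled to a common library total) per library. ESR1, PGR and ERBB2, the receptor genes that define the triple-negative class, summed to 107 to 191 CPM, most of it ERBB2. Endothelial markers came to 0.137 to 1.28 CPM and leukocyte markers to 0.147 to 0.615 CPM. The 4 fibroblast markers, none of them at 0 in all 21 libraries, summed to 36.8 to 40.7 CPM in 3xCTL, 16.0 to 17.3 in the libraries labelled 3xSR and 9.14 to 10.5 in MYC-OE. They summed to 17.2 to 24.0 CPM in 1xCtrl and to 6.52 to 13.9 in the 3 single-factor lines, and most of each sum was LUM. The part of these marker differences in the results below was not tested. In bulk RNA, fewer cells of a type and less RNA per cell cannot be told apart.

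Of the 45 effects of the 9 genes in 5 lines, 21 passed the test against the line's own control, 16 of them higher and 5 lower. The counts differed between lines. In the libraries labelled 3xSR, 2 of the 9 genes passed, where 29% of all genes tested did. In MYC-OE 7 of 9 passed against a background of 35.3%, in the libraries labelled SRSF2-OE 6 of 9 against 23.5%, in SRSF3-OE 5 of 9 against 29.2%, and in SRSF7-OE 1 of 9 against 17.3%. Single libraries moved 3 of these counts by more than 1.5 times. The count in SRSF3-OE was 3 without replicate 1 or replicate 3 of 1xCtrl or of SRSF3-OE. That in SRSF7-OE was 4 without replicate 2 of 1xCtrl, and that in the libraries labelled 3xSR was 5 without replicate 2 of 3xCTL. Calls over all genes also rose in the last 2 fits, from 4214 to 7321 and from 6727 to 9204. In SRSF3-OE they fell from 7108 to 5555 without its replicate 1. By direction, higher and lower calls made up 15.3% and 13.7% of all genes in the libraries labelled 3xSR, 18% and 17.3% in MYC-OE, 11.6% and 11.9% in those labelled SRSF2-OE, 15% and 14.1% in SRSF3-OE, and 9.03% and 8.26% of those in SRSF7-OE. TGFB2 was the gene called lower in most lines, with 3 lower and 0 higher. TGFBR2 and INHBA were each called higher in 3 lines and lower in 0. SMAD7 and ID2 were called in both directions, higher in 2 lines and lower in 1. 3xSR and MYC-OE share the libraries of 3xCTL, and the 3 single-factor lines share those of 1xCtrl, so effects within a table are not independent of each other.

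**Figure D1:**
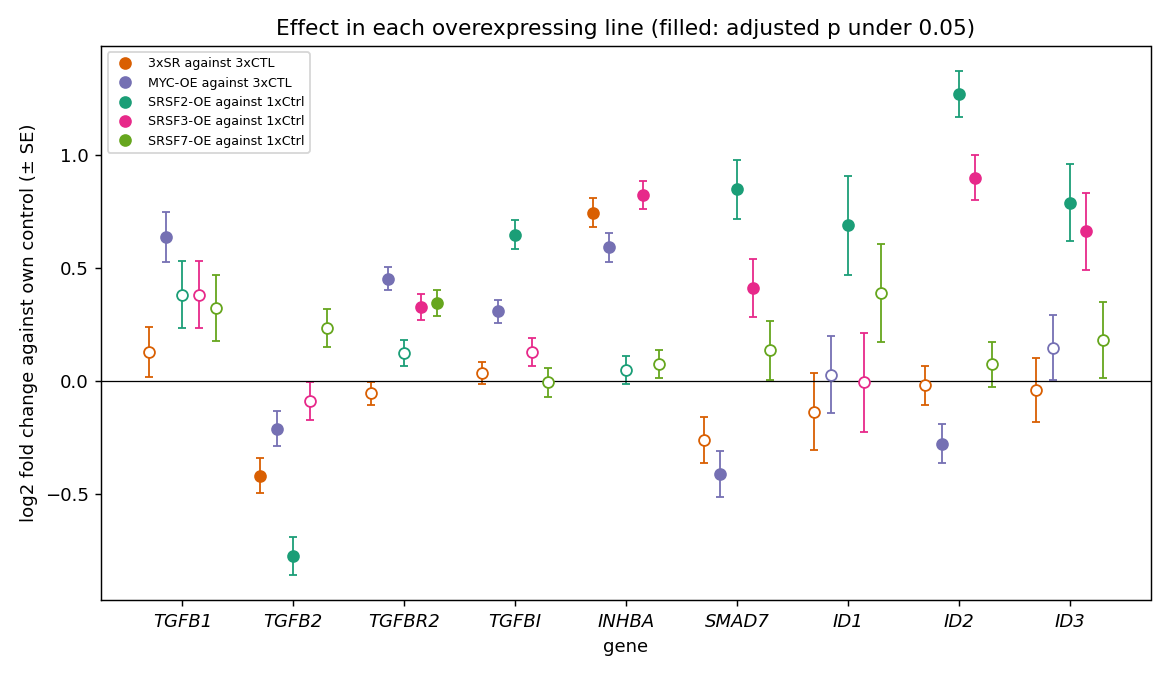
Log2 fold change of each of the 9 genes (x axis) in each of the 5 overexpressing lines against that line's own control (y axis, log2 scale), with its standard error as the bar and filled symbols for an adjusted p under 0.05. ID2 spans the widest range of the 9, from -0.28 in MYC-OE to 1.27 in the libraries labelled SRSF2-OE, and TGFB2 reaches the lowest value, -0.77.

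Promoter sequence is shown for TGFB2 and INHBA, the pair of ligand genes whose level moved in the line labelled as carrying all 3 splicing factors, and in opposite directions. Both windows lie before the transcription start that RefSeq gives (build GRCh38.p14), at chr1:218345086-218345335 on the plus strand and chr7:41703109-41703340 on the minus strand. The first runs from -250 to -1 and the second from -250 to -19, where the first annotated exon of that start begins in GENCODE release 29. The INHBA window falls in an intron of a longer annotated transcript. The TGFB2 window ends at 218345335, while TGFB2 starts further downstream in GENCODE release 29, at 218346235. Positions are therefore counted from the RefSeq start and not from that gene model. Capitals mark matches, on either strand, to motifs that were searched by their letters: CACGTG (the E-box that MYC and other factors bind), CAGAC (a SMAD box), TGANTCA (an AP-1 site), GGCGCC (a SMAD site of the BMP branch), CCAAT and TATAAA.
TGFB2: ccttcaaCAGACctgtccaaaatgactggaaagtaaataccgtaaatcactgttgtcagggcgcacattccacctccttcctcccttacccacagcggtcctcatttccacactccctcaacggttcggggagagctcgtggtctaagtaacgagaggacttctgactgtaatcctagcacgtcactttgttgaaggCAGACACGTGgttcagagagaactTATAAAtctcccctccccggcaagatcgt
INHBA: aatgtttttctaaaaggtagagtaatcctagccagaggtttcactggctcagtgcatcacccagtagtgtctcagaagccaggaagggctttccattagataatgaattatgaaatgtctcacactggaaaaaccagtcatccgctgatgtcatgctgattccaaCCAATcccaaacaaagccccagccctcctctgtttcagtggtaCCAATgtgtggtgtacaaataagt

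In TGFB2 a CAGAC at -53 to -49 overlapped the CACGTG at -49 to -44 by 1 base, a further CAGAC stood at -243 to -239, and a TATAAA stood at -29 to -24. The INHBA window held CCAAT at -85 to -81 and at -42 to -38. Over the 250 bases before each of 35116 RefSeq starts, CACGTG was present in 6.34%, CAGAC in 38.0%, TGANTCA in 6.57%, GGCGCC in 16.4%, CCAAT in 32.0% and TATAAA in 10.7%. Among the 9 genes, which have 12 such windows, CACGTG was found for TGFB2 alone, CAGAC for TGFB2, SMAD7 and ID3, and GGCGCC for TGFBI alone. CCAAT was found for TGFBR2, INHBA, ID1 and ID2, TATAAA for TGFB2, INHBA, SMAD7 and ID1, and TGANTCA for 0 of the 9. The INHBA window printed above holds no TATAAA, so its match lies outside the letters shown. Counted by window, matches were in 1, 4, 0, 1, 5 and 4 of the 12, in the order of the percentages. These matches are descriptions of the letters and not binding sites.

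TGFB2 encodes a TGF-beta ligand (chromosome 1, 218346235 to 218444619, plus strand, GRCh38, GENCODE release 29). It was lower in the libraries labelled 3xSR and SRSF2-OE. Its level was 14.9, 16.6 and 15.1 CPM in 3xCTL, 10.5, 12.1 and 12.2 CPM in the libraries labelled 3xSR and 13.5, 13.4 and 13.3 CPM in MYC-OE. Each overexpressing library lay below every 3xCTL library. TGFB2 fell by 0.42 on the log2 scale in the libraries labelled 3xSR (SE 0.0763, adjusted p = 0.0015) and by 0.21 in MYC-OE (SE 0.0760, adjusted p = 0.049, edgeR quasi-likelihood test). In the second table it was 15.6, 12.8 and 14.8 CPM in 1xCtrl and 8.10, 8.08 and 9.07 CPM in the libraries labelled SRSF2-OE, which did not overlap. This was a fall by 0.77 on the log2 scale, to 0.585 of the control (SE 0.0838, adjusted p = 3.98e-05). The libraries of SRSF3-OE, at 14.2, 12.97 and 13.5 CPM, lay within the range of 1xCtrl (log2 fold change -0.089, adjusted p = 0.476). Those of SRSF7-OE, at 16.9, 17.1 and 16.8 CPM, lay above it without passing the test (log2 fold change 0.24, adjusted p = 0.0705). The fall in MYC-OE did not pass in 11 of 13 alternative analyses, while those in the libraries labelled 3xSR and SRSF2-OE passed in all 13. Of the 5151 exon bases of TGFB2, 1371 are shared with TGFB2-OT1 on the same strand, so reads there cannot be assigned to 1 of the 2 genes.

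INHBA encodes the subunit that forms activin A (chromosome 7, 41667168 to 41705834, minus strand). It was higher in 3 lines, the libraries labelled 3xSR, MYC-OE and SRSF3-OE. The 3xCTL libraries held 25.8, 28.6 and 27.0 CPM. Those labelled 3xSR held 44.5, 48.8 and 43.2 CPM and those of MYC-OE 41.3, 42.5 and 38.9 CPM, so both lines stood clear of the control. The rise was 1.68-fold in the libraries labelled 3xSR (log2 fold change 0.74, SE 0.0633, adjusted p = 4.67e-06) and 1.51-fold in MYC-OE (0.59, SE 0.0631, adjusted p = 2e-05, edgeR). In the second table INHBA was 40.6, 35.6 and 37.4 CPM in 1xCtrl and 67.3, 69.4 and 64.1 CPM in SRSF3-OE. This was 1.77-fold higher (log2 fold change 0.82, SE 0.0620, adjusted p = 1.2e-06). The libraries labelled SRSF2-OE held 37.5, 40.4 and 39.6 CPM and those of SRSF7-OE 39.3, 40.9 and 39.5 CPM, which overlapped 1xCtrl (log2 fold changes 0.048 and 0.076, adjusted p = 0.64 and 0.451). The 3 rises passed in all 13 alternative analyses each. The control level itself differed between the tables, which were scaled separately, since every 1xCtrl library held more INHBA than every 3xCTL library.

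TGFB1 encodes the founding TGF-beta ligand (chromosome 19, 41301587 to 41353911, minus strand), and 215 of its 3238 exon bases lie opposite HNRNPUL1. It was called higher in MYC-OE alone. It was 22.0, 15.9 and 22.2 CPM in 3xCTL, 20.8, 23.6 and 21.3 CPM in the libraries labelled 3xSR and 30.5, 31.2 and 31.8 CPM in MYC-OE. The MYC-OE libraries stood above all others of that table, 1.56-fold above the control (log2 fold change 0.64, SE 0.111, adjusted p = 0.00106). The libraries labelled 3xSR overlapped the control (0.13, SE 0.111, adjusted p = 0.427). In the second table TGFB1 was 16.6, 24.4 and 15.5 CPM in 1xCtrl, and the 9 libraries of the single-factor lines lay between 20.7 and 26.4 CPM. All 9 exceeded 1xCtrl replicates 1 and 3, and replicate 2 lay within their range. The log2 fold changes were 0.38 for the libraries labelled SRSF2-OE, 0.38 for SRSF3-OE and 0.32 for SRSF7-OE (SE 0.147 for each), with adjusted p = 0.0845, 0.073 and 0.162.

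TGFBR2 encodes the type II receptor that binds TGF-beta (chromosome 3, 30606502 to 30694142, plus strand). It was higher in MYC-OE, SRSF3-OE and SRSF7-OE. The 3xCTL libraries held 119.5, 133 and 122 CPM and those labelled 3xSR 119, 121 and 121 CPM, an overlap (log2 fold change -0.054, adjusted p = 0.453). The MYC-OE libraries, at 171, 172 and 170.1 CPM, were 1.37-fold higher (log2 fold change 0.45, SE 0.0496, adjusted p = 2.45e-05). In 1xCtrl it was 122, 112 and 117 CPM, in SRSF3-OE 149, 145 and 146 CPM and in SRSF7-OE 148, 155 and 143 CPM. Both lines stood clear of the control, 1.25-fold and 1.27-fold higher (SE 0.0558 for both log2 values, adjusted p = 0.000671 and 0.00152). The log2 value in SRSF3-OE was 0.33, and 0.22 when scaled by total counts alone. The libraries labelled SRSF2-OE held 122, 127 and 132 CPM and did not pass the test (log2 fold change 0.12, adjusted p = 0.132). The receptor's rise was the single effect of SRSF7-OE that passed among the 9 genes.

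TGFBI encodes a secreted matrix protein induced by TGF-beta (chromosome 5, 136028895 to 136063818, plus strand). It was higher in MYC-OE and in the libraries labelled SRSF2-OE. It was 353, 365 and 391 CPM in 3xCTL, 372, 392 and 372 CPM in the libraries labelled 3xSR and 459, 454 and 462 CPM in MYC-OE. The MYC-OE libraries were 1.24-fold above the control and did not overlap it (log2 fold change 0.31, SE 0.0503, adjusted p = 0.000505). In 1xCtrl it was 293, 288 and 301 CPM, against 437, 483 and 461 CPM in the libraries labelled SRSF2-OE, a 1.57-fold rise (log2 fold change 0.65, SE 0.0635, adjusted p = 1.83e-05). SRSF3-OE held 336, 307 and 321 CPM and SRSF7-OE 304, 302 and 271 CPM, with log2 fold changes of 0.13 (adjusted p = 0.153) and -0.0058 (adjusted p = 0.968).

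SMAD7 encodes the inhibitory SMAD (chromosome 18, 48919853 to 48952052, minus strand) and had the lowest counts of the 9, with 599 to 1504 counts per library. It was lower in MYC-OE, and it was higher in SRSF3-OE and in the libraries labelled SRSF2-OE. It was 5.64, 4.95 and 5.89 CPM in 3xCTL, 4.39, 4.88 and 4.49 CPM in the libraries labelled 3xSR and 4.35, 3.78 and 4.25 CPM in MYC-OE. It fell by 0.41 on the log2 scale in MYC-OE (SE 0.101, adjusted p = 0.00709). The libraries labelled 3xSR also lay below the control without passing the test (-0.26, SE 0.101, adjusted p = 0.0736). In 1xCtrl SMAD7 was 3.30, 3.89 and 3.27 CPM, and in the libraries labelled SRSF2-OE 6.40, 6.12 and 6.31 CPM. This was 1.80-fold higher with no overlap (log2 fold change 0.85, SE 0.129, adjusted p = 0.000481). The SRSF3-OE libraries, at 4.89, 3.94 and 5.06 CPM, were 0.41 higher on the log2 scale (SE 0.129, adjusted p = 0.0289), a call that was lost in 8 of 13 alternative analyses. SRSF7-OE, at 3.26, 4.30 and 3.93 CPM, overlapped the control (0.14, adjusted p = 0.532).

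ID2 (chromosome 2, 8678845 to 8684453, plus strand) gave the highest fold change of the 9 genes. The 3xCTL libraries held 9.77, 9.41 and 10.5 CPM, those labelled 3xSR 10.6, 9.36 and 9.31 CPM and those of MYC-OE 8.76, 8.07 and 7.68 CPM. ID2 was lower in MYC-OE (log2 fold change -0.28, SE 0.0854, adjusted p = 0.024), a call lost in 4 of 13 alternative analyses, and overlapped the control in the libraries labelled 3xSR (-0.019, adjusted p = 0.899). The 1xCtrl libraries held 6.59, 6.30 and 6.53 CPM, a narrow range. Those labelled SRSF2-OE held 15.5, 16.2 and 15.1 CPM, 2.41-fold more (log2 fold change 1.27, SE 0.102, adjusted p = 4.65e-06). Those of SRSF3-OE held 11.9, 10.5 and 13.8 CPM, 1.87-fold more (0.90, SE 0.101, adjusted p = 3.05e-05). The SRSF7-OE libraries, at 6.14, 7.19 and 7.10 CPM, overlapped the control (0.073, adjusted p = 0.688). Both rises passed in all 13 alternative analyses each. Of 2205 exon bases of ID2, 38 lie opposite ID2-AS1.

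ID1 (chromosome 20, 31605283 to 31606515, plus strand) and ID3 (chromosome 1, 23557918 to 23559794, minus strand) varied most between control libraries. ID1 was 89.9, 55.5 and 81.2 CPM in 3xCTL, and ID3 was 116, 74.1 and 108 CPM. In 1xCtrl ID1 was 51.5, 85.4 and 49.98 CPM, and ID3 was 60.5, 96.7 and 58.8 CPM. In both tables replicate 2 of the control stood apart from its partners, below them in 3xCTL and above them in 1xCtrl. In the first table neither gene passed the test. ID1 was 76.5, 64.2 and 65.6 CPM in the libraries labelled 3xSR (log2 fold change -0.14, adjusted p = 0.61) and 75.8, 70.7 and 84.7 CPM in MYC-OE (0.029, adjusted p = 0.92). ID3 was 99.8, 96.3 and 93.5 CPM and 115, 104 and 112 CPM in the same lines (-0.041 and 0.15, adjusted p = 0.864 and 0.467). All of these overlapped the control.

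In the second table the libraries labelled SRSF2-OE held more of both genes than 1xCtrl. ID1 was 104, 93.9 and 103 CPM there, each above the highest control library (log2 fold change 0.69, SE 0.218, adjusted p = 0.0474). ID3 was 130.2, 119 and 124 CPM, 1.73-fold above the control (0.79, SE 0.171, adjusted p = 0.00745). In SRSF3-OE the pair parted: ID3, at 114, 107 and 121 CPM, was 1.58-fold higher (0.66, SE 0.171, adjusted p = 0.0142). ID1, at 61.6, 56.9 and 67.7 CPM, stood within the range of the control (-0.0064, SE 0.217, adjusted p = 0.989). In SRSF7-OE ID1 was 82.5, 62.9 and 99.4 CPM and ID3 was 81.7, 71.8 and 91.7 CPM, with log2 fold changes of 0.39 and 0.18 (adjusted p = 0.268 and 0.53, edgeR). The ID1 call in the libraries labelled SRSF2-OE was lost in 10 of 13 alternative analyses, the ID3 call there in 5 and the ID3 call in SRSF3-OE in 7.

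**Figure D2:**
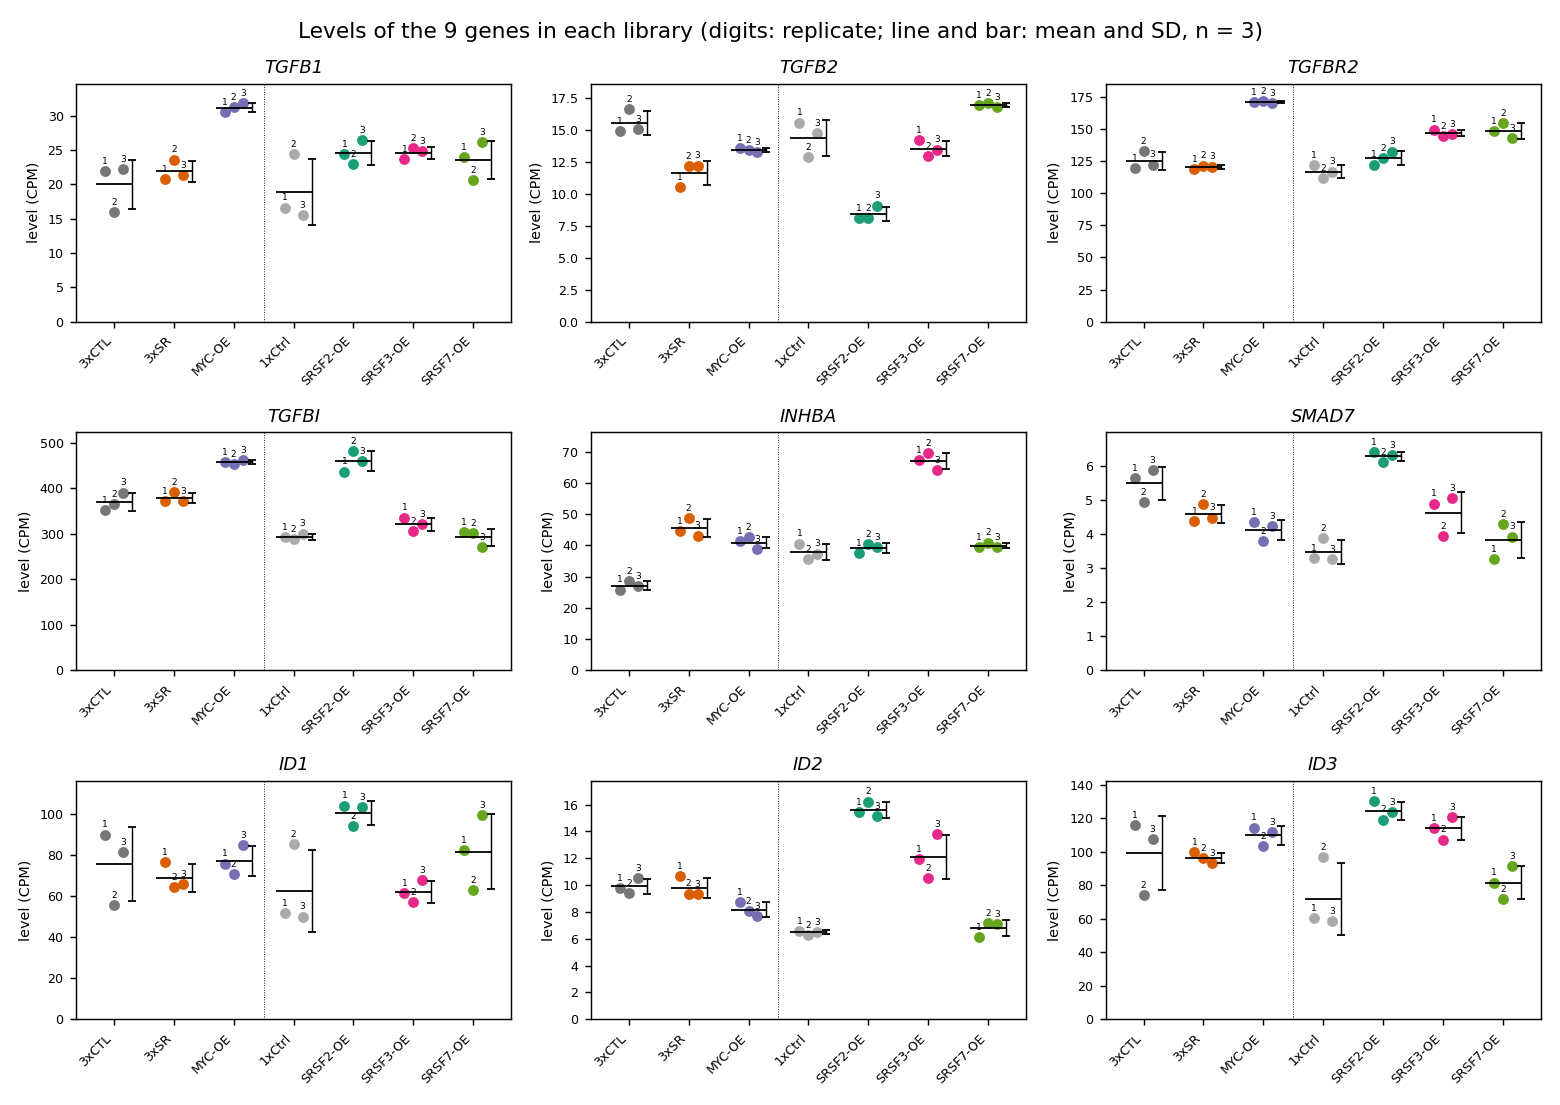
Level of each of the 9 genes in CPM (y axis, from 0) in every library of the 7 groups (x axis); digits are the replicate numbers, the line is the group mean and the bar the SD (n = 3), and the dotted line separates the tables. Replicate 2 of 1xCtrl stands above its partners for ID1 (85.4 CPM), ID3 (96.7 CPM) and TGFB1 (24.4 CPM).

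The libraries also differed in how their counts depended on GC content, and that difference ran with the control replicates named above. A GC trend was computed for each library as the log2 deviation from the mean of its table in the 5 most GC-rich of 50 bins of genes, less that in the 5 most GC-poor. It was 0.774 in replicate 2 of 1xCtrl, against -0.247 and -0.540 in its partners. It was -0.410 in replicate 2 of 3xCTL, against 0.312 and 0.271. The overexpressing lines differed as well: the trend ran from -0.438 to -0.243 in the libraries labelled 3xSR, 0.234 to 0.436 in MYC-OE, -0.0206 to 0.117 in those labelled SRSF2-OE, -0.383 to -0.182 in SRSF3-OE and -0.0879 to 0.461 in SRSF7-OE. The transcripts of TGFB1 (63.5% GC), SMAD7 (58.7%), ID1 (58.6%) and ID3 (57.2%) are GC-rich, with more GC than 94.6%, 83.4%, 83.0% and 78.9% of the genes tested. TGFB2 (38.9%) and INHBA (39.1%) are GC-poor, at 11.0% and 11.9%.

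**Figure D3:**
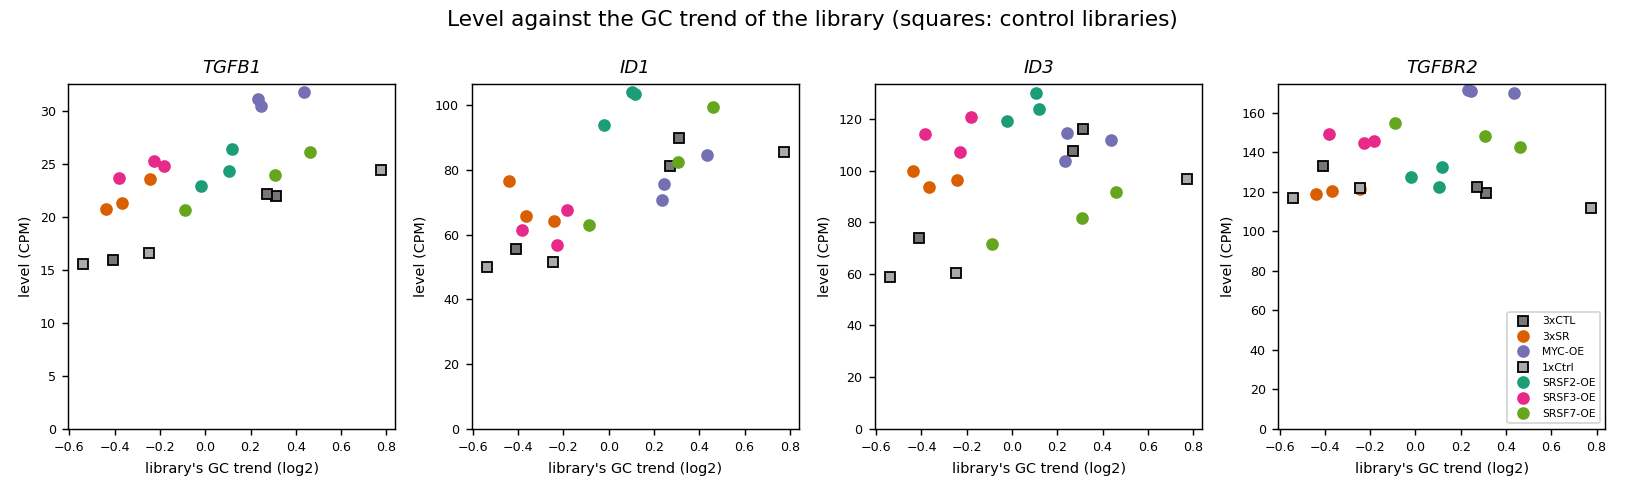
Level in CPM (y axis, from 0) of TGFB1, ID1, ID3 and, for contrast, TGFBR2 (47.4% GC) against the GC trend of the library (x axis, log2), with squares for control libraries and circles for overexpressing ones. The 1xCtrl library with a trend of 0.774 holds 24.4 CPM of TGFB1, 85.4 CPM of ID1 and 96.7 CPM of ID3, more than the other 1xCtrl libraries.

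Values under 2 alternatives bear on these genes. Replicate 2 of each control stood apart in the levels of TGFB1, ID1 and ID3 themselves, and the lines of a table share their control. Changes of these genes without that replicate follow in part from this choice and are no separate support for a rise or fall. Without replicate 2 of 1xCtrl, 17 of the 27 effects in the single-factor lines passed the edgeR test, where 12 passed with it. All-gene calls also rose, from 5733 to 7545 in the libraries labelled SRSF2-OE, 7108 to 8064 in SRSF3-OE and 4214 to 7321 in SRSF7-OE. TGFB1 then rose in all 3 lines, by 0.61 in the libraries labelled SRSF2-OE (adjusted p = 0.000327), 0.60 in SRSF3-OE (adjusted p = 0.000305) and 0.57 in SRSF7-OE (adjusted p = 0.000771). ID3 likewise rose in all 3, by 1.05 (adjusted p = 1.02e-05), 0.92 (adjusted p = 2.15e-05) and 0.47 (adjusted p = 0.00353). ID1 rose by 0.98 in the libraries labelled SRSF2-OE (adjusted p = 0.00396) and by 0.70 in SRSF7-OE (adjusted p = 0.02). In SRSF3-OE it changed sign to 0.28 without passing (adjusted p = 0.286). Without replicate 2 of 3xCTL, 11 of 18 effects passed, where 9 passed with it. All-gene calls went from 6727 to 9204 in the libraries labelled 3xSR and from 8182 to 9009 in MYC-OE. In the libraries labelled 3xSR, SMAD7 then fell by 0.33 (adjusted p = 0.0186), ID1 by 0.32 (adjusted p = 0.0211) and ID3 by 0.21 (adjusted p = 0.00667), and TGFB1 differed by -0.012 (adjusted p = 0.902). The TGFB2 call in MYC-OE was lost (-0.16, adjusted p = 0.114).

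With the GC trend of each library taken out as an offset and all libraries kept, 26 of the 45 effects passed, where 21 passed without it. All-gene calls in SRSF7-OE also rose, from 4214 to 6991. All-gene counts of the other lines against their control are not given here for this removal. The rise from 21 to 26 is therefore not to be read as particular to these genes. TGFB1 then rose in 4 of the 5 lines: by 0.39 in the libraries labelled 3xSR (adjusted p = 7.74e-06), 0.44 in those labelled SRSF2-OE (adjusted p = 0.000146) and 0.56 in SRSF3-OE (adjusted p = 1.26e-05), beside its rise in MYC-OE. In SRSF7-OE, TGFB1 (0.17, adjusted p = 0.0779), ID1 (0.38, adjusted p = 0.0803) and ID3 (0.17, adjusted p = 0.250) did not pass. All of them had passed there with a 1xCtrl library left out. TGFBR2 still passed in SRSF7-OE (0.36, adjusted p = 3.47e-05). TGFB2 fell in SRSF3-OE (-0.17, adjusted p = 0.0485) and rose in SRSF7-OE (0.27, adjusted p = 0.0068), and its fall in MYC-OE no longer passed (-0.14, adjusted p = 0.14). TGFBI rose by 0.16 in SRSF3-OE (adjusted p = 0.0215). ID1 and ID3 in the libraries labelled 3xSR changed sign, to 0.058 and 0.13, without passing (adjusted p = 0.818 and 0.424). This removal was chosen after the data were seen.

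**Figure D4:**
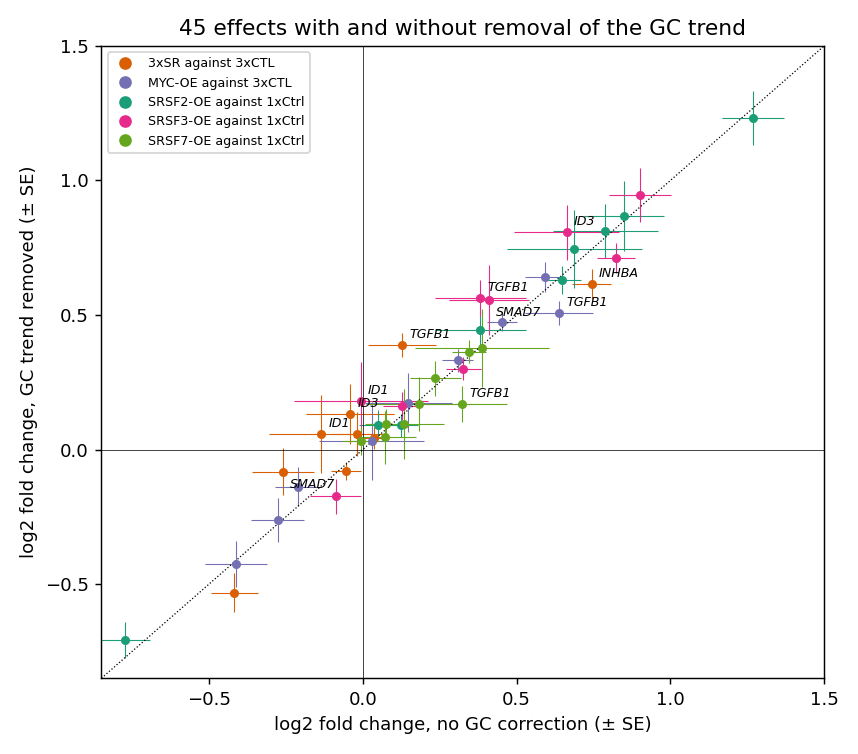
Log2 fold change of the 45 effects with the GC trend of each library removed (y axis) against the value without that correction (x axis), with standard errors as bars, colours for the lines and names beside the effects that moved most. TGFB1 in the libraries labelled 3xSR lies above the diagonal, at 0.13 without and 0.39 with the correction.

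The lines were next compared with each other. In MYC-OE against the libraries labelled 3xSR, 4 of the 9 genes passed, beside 34.9% of all genes tested. TGFB1 (log2 difference 0.51, adjusted p = 0.0047), TGFBR2 (0.51, adjusted p = 1.96e-05) and TGFBI (0.27, adjusted p = 0.00138) were higher in MYC-OE, and ID2 was lower (-0.26, adjusted p = 0.0343). With the GC trend removed the TGFB1 difference was 0.12 (adjusted p = 0.0480), and the ID2 call was lost in 6 of 13 alternative analyses, 5 of them with a library of either line left out. INHBA, raised in both, did not pass (-0.15, SE 0.0628, adjusted p = 0.0803), nor did TGFB2 (0.21, SE 0.0763, adjusted p = 0.0528).

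The libraries labelled SRSF2-OE and those of SRSF3-OE differed in 7 of the 9 genes, beside 26.8% of all genes. TGFBI (0.52), SMAD7 (0.44), ID1 (0.69) and ID2 (0.37) had the higher level in the libraries labelled SRSF2-OE, with adjusted p = 7.17e-05, 0.0224, 0.0416 and 0.0152. TGFB2 (-0.69, adjusted p = 7.06e-05), TGFBR2 (-0.20, adjusted p = 0.016) and INHBA (-0.77, adjusted p = 2.42e-06) were lower there. ID3 did not pass (0.13, SE 0.170, adjusted p = 0.653), nor did TGFB1, whose means were 24.6 ± 1.74 and 24.6 ± 0.828 CPM (SD, n = 3). The ID1 difference had no overlap between the lines, and INHBA had the lowest p of the 7. Of these calls ID1 was lost in 8 of 13 alternative analyses (adjusted p up to 0.151), SMAD7 in 6, among them with the GC trend removed, and ID2 in 3. The count of 7 was 4 without replicate 2 of the libraries labelled SRSF2-OE, replicate 1 of SRSF3-OE or replicate 2 of SRSF3-OE. Over all genes the count, 6523, was 5180 without replicate 1 of SRSF3-OE and 6353 without its replicate 2. Those were the lowest and highest of the 6 fits with a library left out.

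SRSF3-OE and SRSF7-OE differed in 4 of 9 genes, beside 35.2% of all genes. INHBA (0.75, adjusted p = 1.44e-06), ID2 (0.83, adjusted p = 3.68e-05) and ID3 (0.48, adjusted p = 0.0498) were higher in SRSF3-OE and TGFB2 was lower (-0.32, adjusted p = 0.00811). The ID3 call was lost in 10 of 13 alternative analyses, with an adjusted p of up to 0.267, and without any 1 of the 6 libraries. The libraries labelled SRSF2-OE differed from SRSF7-OE in 6 of 9, beside 24.2% of all genes. TGFB2 was at 0.497 of its SRSF7-OE level (adjusted p = 5.54e-06) and TGFBR2 at 0.858 (adjusted p = 0.0112). TGFBI was 1.57-fold (adjusted p = 1.74e-05), SMAD7 1.64-fold (adjusted p = 0.00143), ID2 2.29-fold (adjusted p = 6.43e-06) and ID3 1.52-fold higher (adjusted p = 0.0257, edgeR). The ID3 call was lost in 9 of 13 alternative analyses (adjusted p up to 0.169), again without any 1 of the 6 libraries, while the other 5 passed in all 13.

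Whether the line labelled as carrying all 3 factors responded like a single-factor line was tested as a difference of effects, each against its own control, in 1 fit of all 21 libraries. The table and the kind of control change together with the line in this comparison and cannot be told apart from it. Against the libraries labelled SRSF2-OE, 6 of the 9 differences passed, where 21.9% of all genes did. Those for ID2 (-1.28, adjusted p = 8.51e-07), SMAD7 (-1.10, adjusted p = 7.44e-05), ID3 (-0.82, adjusted p = 0.0255) and TGFBI (-0.60, adjusted p = 1.36e-05) were negative, meaning a lower effect in the libraries labelled 3xSR. Those for INHBA (0.71, adjusted p = 4.23e-06) and TGFB2 (0.36, adjusted p = 0.0181) were positive. The TGFB2 call was lost in 8 of 18 alternative analyses, falling to 0.17 (adjusted p = 0.205) with the GC trend removed, and the ID3 call in 7 of 18. Against SRSF3-OE 4 of 9 passed, beside 17.8% of all genes, and all 4 were negative: ID2 (-0.91, adjusted p = 7.2e-05), SMAD7 (-0.66, adjusted p = 0.00925), TGFBR2 (-0.37, adjusted p = 0.000696) and TGFB2 (-0.32, adjusted p = 0.0458). The TGFB2 call was lost in 9 of 18 alternative analyses (adjusted p up to 0.141). The INHBA effects, 0.74 and 0.82, did not differ by the test (-0.064, SE 0.0827, adjusted p = 0.676). Against SRSF7-OE 3 of 9 passed, beside 24.6% of all genes: TGFB2 (-0.65, adjusted p = 0.000154), TGFBR2 (-0.40, adjusted p = 0.00023) and INHBA (0.67, adjusted p = 6.91e-06). Without replicate 2 of 1xCtrl 7 of the 9 passed, TGFB1, SMAD7, ID1 and ID3 being added. Each of those added had a lower effect in the libraries labelled 3xSR. Over all genes the count then rose from 6142 to 8586.

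SMAD7 and ID2, called lower in MYC-OE and higher in 2 single-factor lines, were tested in the same way, in comparisons added after their values were seen. All 9 genes were read in both. The MYC-OE effect was below that of the libraries labelled SRSF2-OE by 1.25 for SMAD7 (log2 difference -1.25, adjusted p = 1.8e-05) and 1.54 for ID2 (-1.54, adjusted p = 6.87e-08), in a comparison where 22% of all genes passed. There 6 of the 9 genes passed: the TGFBI effect was also lower in MYC-OE (-0.33, adjusted p = 0.00465), and TGFB2 (0.57, adjusted p = 0.000566), TGFBR2 (0.34, adjusted p = 0.00104) and INHBA (0.55, adjusted p = 6.01e-05) had the higher effect in MYC-OE. Against SRSF3-OE 2 of 9 passed, and 4 without replicate 2 of 3xCTL. The differences were -0.81 for SMAD7 (adjusted p = 0.00103) and -1.16 for ID2 (adjusted p = 1.52e-06), where 29.2% of all genes passed. Over all genes that count was 7292, and it ran from 6364 to 7619 with a library left out. In CPM, ID2 in MYC-OE (8.17 ± 0.544, SD, n = 3) still lay above ID2 in 1xCtrl (6.47 ± 0.152), a comparison across tables that were scaled separately and that was not tested.

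Levels were compared between genes only per kilobase of exon, counting every annotated exon base of the gene. This length exceeds the longest transcript for TGFBI (7810 against 4661 bases), ID3 (1797 against 1251) and INHBA (8302 against 6064). For ID1 both are 1233 bases. The orders below, that of ID1, ID3 and TGFBI among them, hold for this length alone and were not computed per transcript length. In 3xCTL the order was ID1 (61.3 ± 14.5 CPM per kb, SD, n = 3), ID3 (55.3 ± 12.4), TGFBI (47.3 ± 2.51), TGFBR2 (26.5 ± 1.50), TGFB1 (6.18 ± 1.10), ID2 (4.49 ± 0.257), INHBA (3.27 ± 0.164), TGFB2 (3.02 ± 0.182) and SMAD7 (1.09 ± 0.0967). ID1, ID3 and TGFBI overlapped each other over the 3 libraries, as did INHBA and TGFB2. The other neighbours in that order did not overlap. In 1xCtrl the order was the same for ID1 (50.5 ± 16.3 CPM per kb), ID3 (40.1 ± 11.9), TGFBI (37.6 ± 0.824), TGFBR2 (24.8 ± 1.05) and TGFB1 (5.82 ± 1.49). INHBA (4.56 ± 0.301) then stood before ID2 (2.94 ± 0.0689) and TGFB2 (2.79 ± 0.272), and SMAD7 (0.693 ± 0.0693) was again lowest. Over the 3 libraries of 1xCtrl, ID3 overlapped both ID1 and TGFBI, INHBA overlapped TGFB1, and ID2 lay within the range of TGFB2. In the libraries labelled SRSF2-OE ID2 reached 7.07 ± 0.258 CPM per kb, which overlapped TGFB1 (7.59 ± 0.537), and TGFB2 fell to 1.63 ± 0.110, next to SMAD7 at 1.25 ± 0.0286. In SRSF3-OE INHBA reached 8.06 ± 0.319 CPM per kb and ID3 (63.5 ± 3.73) stood above ID1 (50.3 ± 4.37) with no overlap.

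Around these 9 genes, 70 other genes of the pathway were listed by role, of which 66 were tested, and NODAL, LEFTY1, LEFTY2 and CDKN2B did not pass the filter. In the libraries labelled 3xSR 22 of the 66 were called higher and 9 lower, in MYC-OE 23 and 22, in those labelled SRSF2-OE 22 and 13, in those of SRSF3-OE 22 and 11, and in those of SRSF7-OE 14 and 4. The shares called were 47%, 68.2%, 53%, 50% and 27.3%, beside 29%, 35.3%, 23.5%, 29.2% and 17.3% of all genes. Over all genes higher and lower calls were 15.3% and 13.7%, 18% and 17.3%, 11.6% and 11.9%, 15% and 14.1%, and 9.03% and 8.26%. Each list below is to be read beside these shares. The median log2 fold change of the 66 was 0.11, 0.027, 0.037, 0.096 and 0.049, against all-gene medians between -0.025 and -0.0038.

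**Figure D5:**
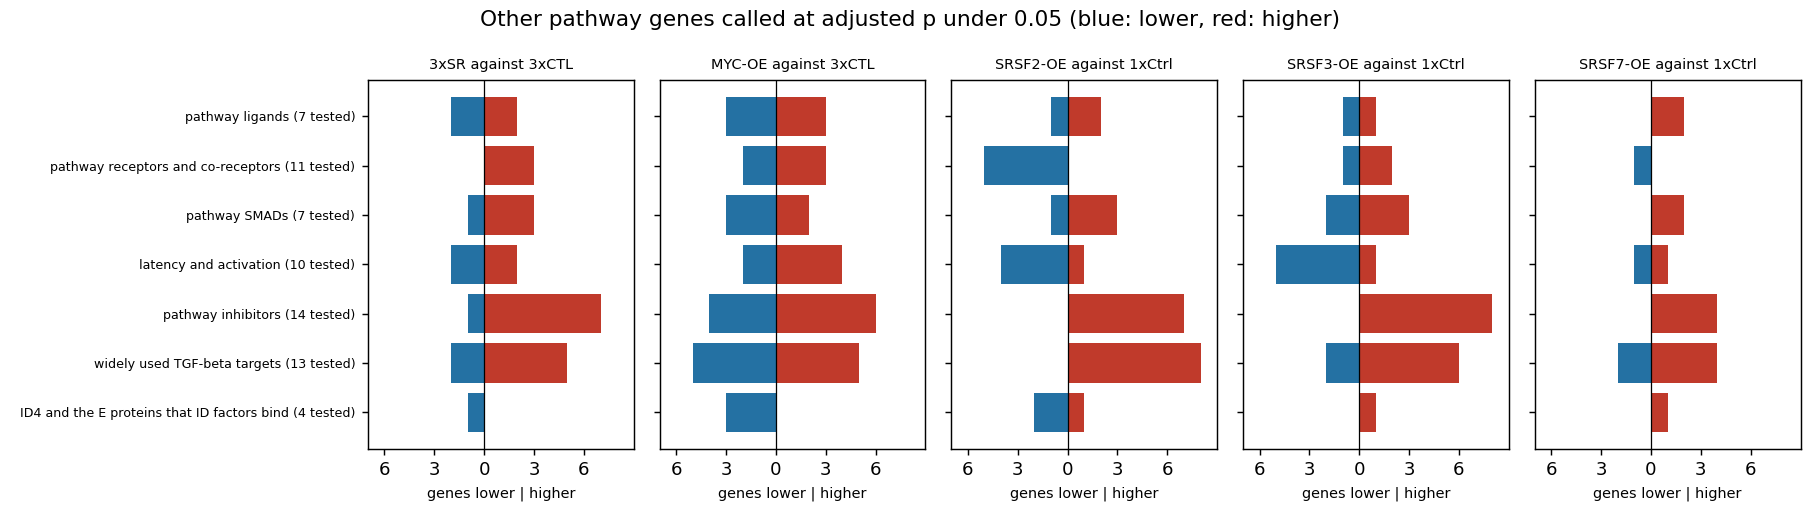
Number of genes of each pathway list called higher (red, right of 0) or lower (blue, left of 0) at an adjusted p under 0.05 in each of the 5 lines against its own control (x axis, genes). Inhibitors were called higher 7, 6, 7, 8 and 4 times of 14 in the libraries labelled 3xSR, MYC-OE, SRSF2-OE, SRSF3-OE and SRSF7-OE. Over all genes the shares called higher were 15.3%, 18%, 11.6%, 15% and 9.03% in that order.

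The inhibitors (14 tested) held more higher than lower calls in each line, as did the 66 pathway genes together. In the libraries labelled 3xSR 7 were higher and 1 lower, in MYC-OE 6 and 4, in those labelled SRSF2-OE 7 and 0, in those of SRSF3-OE 8 and 0 and in those of SRSF7-OE 4 and 0. Their median log2 fold changes were 0.19, 0.26, 0.47, 0.23 and 0.039. PMEPA1, a TGF-beta-induced protein that holds receptor-activated SMADs back, was 5.98 ± 0.0694 CPM in 1xCtrl and 19.4 ± 0.422 CPM (SD, n = 3) in the libraries labelled SRSF2-OE, 3.25-fold higher (adjusted p = 3.83e-07). In SRSF3-OE it was 16.8 ± 1.78 CPM, 2.81-fold higher (adjusted p = 4.54e-07). GREM1, a secreted BMP antagonist, fell in MYC-OE from 37.9 ± 2.88 to 16.4 ± 0.829 CPM (log2 fold change -1.21, adjusted p = 1.18e-07).

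Of the 13 widely used TGF-beta target genes tested, the libraries labelled 3xSR had 5 called higher and 2 lower, with 5 and 5 in MYC-OE, 8 and 0 in those labelled SRSF2-OE, 6 and 2 in those of SRSF3-OE and 4 and 2 in those of SRSF7-OE. Their medians were 0.019, -0.046, 0.43, 0.27 and 0.19. CDKN1A, the cell-cycle inhibitor p21, rose 2.11-fold in the libraries labelled 3xSR (adjusted p = 1.02e-06), while TGM2, a transglutaminase, fell from 12.3 ± 1.45 to 3.07 ± 0.271 CPM (log2 fold change -2.01, adjusted p = 2.46e-07). FN1, the matrix protein fibronectin, rose 3.34-fold in MYC-OE (adjusted p = 7.23e-09) and 2.26-fold in SRSF7-OE (adjusted p = 6.7e-06). CCN2, a matricellular growth factor, rose 2.48-fold in the libraries labelled SRSF2-OE (adjusted p = 4.07e-07) and 2.22-fold in SRSF3-OE (adjusted p = 5.16e-07). CCN1, its relative, was at 0.777 of the control in SRSF7-OE (adjusted p = 0.0026).

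Receptors and co-receptors (11 tested) had 3 higher and 0 lower calls in the libraries labelled 3xSR, 3 and 2 in MYC-OE, 0 and 5 in those labelled SRSF2-OE, 2 and 1 in those of SRSF3-OE and 0 and 1 in those of SRSF7-OE. The median in the libraries labelled SRSF2-OE was -0.37, beside -0.011 over all genes. TGFBR3, a co-receptor that presents TGF-beta ligands, fell there from 57.9 ± 6.63 to 33.5 ± 2.56 CPM (log2 fold change -0.79, adjusted p = 7.93e-05). Among ligands (7 tested), BMP4 was lower in the libraries labelled 3xSR (8.71 ± 0.371 to 4.08 ± 0.218 CPM, adjusted p = 2.23e-06) and higher in SRSF7-OE (5.68 ± 0.561 to 9.47 ± 0.375 CPM, adjusted p = 0.000286). The calls over the ligands were 2 higher and 2 lower, 3 and 3, 2 and 1, 1 and 1, and 2 and 0 in the order of lines above.

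The other SMADs (7 tested) were called higher and lower 3 and 1, 2 and 3, 3 and 1, 3 and 2, and 2 and 0 times in the libraries labelled 3xSR, MYC-OE, SRSF2-OE, SRSF3-OE and SRSF7-OE. SMAD6, the inhibitory SMAD of the BMP branch, fell in MYC-OE from 28.4 ± 2.11 to 10.9 ± 0.606 CPM (log2 fold change -1.37, adjusted p = 5.12e-08). Genes of latency and activation (10 tested) were called 2 and 2, 4 and 2, 1 and 4, 1 and 5, and 1 and 1 times. LTBP3, which ties latent TGF-beta to the matrix, had a control level of 75.7 ± 19.8 CPM. It fell by 0.71 on the log2 scale in the libraries labelled SRSF2-OE (adjusted p = 0.00717). In SRSF3-OE the fall was 1.04 (adjusted p = 0.00053). Without replicate 2 of 1xCtrl both calls passed in edgeR, at -0.49 (adjusted p = 0.00256) and -0.83 (adjusted p = 5.15e-05). The first was lost in 1 of 13 alternative analyses, with only the groups compared (adjusted p = 0.0594). LTBP2 fell by 0.49 in SRSF3-OE (adjusted p = 0.0455), a call lost in 7 of 13 alternative analyses, among them without replicate 2 of 1xCtrl (-0.33, adjusted p = 0.145). THBS1, a matrix protein that activates latent TGF-beta, fell in SRSF7-OE from 838 ± 16.1 to 575 ± 28.5 CPM (adjusted p = 0.000301). Of ID4 and the 3 E proteins TCF3, TCF4 and TCF12, the libraries labelled 3xSR had 0 called higher and 1 lower, with 0 and 3 in MYC-OE, 1 and 2 in the libraries labelled SRSF2-OE, and 1 and 0 for both SRSF3-OE and SRSF7-OE.

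Genes whose level ran most like each member were found over the 21 libraries, on log2(CPM + 0.1) less the mean of the control of the same table, among 11465 genes with a mean of at least 5 CPM. The libraries share groups, controls and GC trends, so these correlations are descriptions and carry no p. The nearest genes were DNAJC5 (Pearson r 0.967) and PFKP (0.961) for TGFB1, CLDN1 (0.949) and ICMT (0.929) for TGFB2, and CYLD (0.973) and MET (0.965) for INHBA. They were NENF (0.927) and RPS18 (0.926) for TGFBR2 and HJURP (0.935) and EBP (0.933) for TGFBI. For the ID genes they were SAMD1 (0.945) and MISP (0.931) for ID1, PNMA1 (0.960) and FERMT1 (0.949) for ID2, and ATP6V0D1 (0.949) and BRMS1 (0.948) for ID3. SMAD7 lay under the limit of 5 CPM and was not included. Among the members themselves, ID2 and ID3 ran together most closely (r 0.816), then ID1 and ID3 (0.749), while TGFB2 ran opposite to TGFBI (-0.760).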

How the data were processed

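The values are gene counts of 21 libraries that the authors deposited in 2 tables, not scaled to a common total. Per the labels' protocols, RNA was polyA-selected, made into stranded libraries and sequenced in pairs. The submitters' processing notes name Trimmomatic 0.39, STAR and StringTie 2.1.3b with GRCh38.p13; the counting step, annotation release and strand setting are not given in the sources used here, and the whole numbers may be rounded estimates.

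Groups and replicate numbers were taken from the titles. Each table was fitted over all its groups with edgeR 4.0.16 in R 4.3.3 (TMM scaling, minimum count 10, minimum total 15, robust quasi-likelihood F-test), and all 7 groups were fitted together for differences of effects. P-values were adjusted by Benjamini-Hochberg over all genes, with a threshold of 0.05. CPM values are TMM-scaled. The script was tested on simulated data. Gene models, exon bases, exon overlaps and transcript GC came from GENCODE release 29 and promoter windows from RefSeq. All 9 genes were described in every contrast, with the 2 highest and 2 lowest called pathway genes per line at a mean of at least 5 CPM. Some results that this rule names are not reported here. The genes, lists and tests were chosen with earlier results of these data known. The main fits hold no replicate block. Alternatives were another scaling, no filter, DESeq2 1.42.0, only the groups compared, a replicate block, each library left out and, added after seeing the data, the motif search and removal of each library's GC trend.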

Additional observations from a re-analysis of the deposited data

Results flagged for a closer look

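Each difference named here passed a test of the difference itself, in 1 edgeR fit of all 21 libraries in which the effect of a line of the first table, against 3xCTL, was set against that of a line of the second table, against 1xCtrl. Of the 27 such differences of the libraries labelled 3xSR over the 9 genes, 13 passed at an adjusted p under 0.05. The share of all genes that passed was 21.9% against the libraries labelled SRSF2-OE, 17.8% against SRSF3-OE and 24.6% against SRSF7-OE. The log2 differences from the libraries labelled SRSF2-OE were 0.36 for TGFB2, -0.60 for TGFBI, 0.71 for INHBA, -1.10 for SMAD7, -1.28 for ID2 and -0.82 for ID3. From SRSF3-OE they were -0.32 for TGFB2, -0.37 for TGFBR2, -0.66 for SMAD7 and -0.91 for ID2. From SRSF7-OE they were -0.65 for TGFB2, -0.40 for TGFBR2 and 0.67 for INHBA. Of these 13, TGFB2 was lost in 8 and ID3 in 7 of 18 alternative analyses against the libraries labelled SRSF2-OE, and TGFB2 in 9 of 18 against SRSF3-OE. The other 10 passed in all 18.

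SMAD7 and ID2 were called lower in MYC-OE and higher in both the libraries labelled SRSF2-OE and SRSF3-OE. The MYC-OE effect differed from that of the libraries labelled SRSF2-OE by -1.25 for SMAD7 and -1.54 for ID2, and from that of SRSF3-OE by -0.81 and -1.16. These comparisons were added after the values were seen. In the first of them TGFB2 (0.57), TGFBR2 (0.34), INHBA (0.55) and TGFBI (-0.33) passed as well. In total 8 of the 18 differences of the MYC-OE effect passed, beside 22% of all genes against the libraries labelled SRSF2-OE and 29.2% against SRSF3-OE. The table, its control and the line change together in all 21 differences and cannot be told apart.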

How the results depend on the processing

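Over 13 alternatives each, the 45 effects against a control gave 585 values, of which 501 kept their direction and their side of the threshold, 45 lost the call, 16 gained it and 23 changed sign. The 36 differences between lines of a table gave 468 values, of which 42 lost the call, 11 gained it and 10 changed sign. Over 18 alternatives the 45 differences of effects gave 810 values, of which 24 lost the call, 37 gained it and 14 changed sign. The number called, 21, was 17 with no filter on low counts, 17 with only the groups compared, 19 with DESeq2's size factors in edgeR, 20 with total counts alone, 21 with DESeq2 and 26 with the GC trend removed. With the replicate number as a block, 18 were called. Same-numbered libraries of a line and its control did not deviate together over all genes tested (correlations -0.190 to 0.0265). Library GC trends enter those deviations, so the values cannot decide whether a shared culture or run pairs them. Leaving out replicate 1 or 3 of 1xCtrl left 8 of the 12 calls in the single-factor lines, and leaving out replicate 1 or 3 of 3xCTL left 7 of 9. All-gene calls moved as well. In the libraries labelled SRSF2-OE they fell from 5733 to 4741 without replicate 1 of 1xCtrl. In SRSF7-OE they fell from 4214 to 2251 with only the groups compared. The changes in the number called are therefore not to be read as particular to the 9 genes. DESeq2 was not run for differences of effects. Values under 10 CPM, as for SMAD7 and ID2, rest on the fewest counts. The causes of the changes below were not tested.

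The count of genes called in SRSF7-OE, 4214, was 2251 with only the groups compared, 6991 with the GC trend removed and 2685 to 7321 with a library left out (lowest without SRSF7-OE replicate 3, highest without 1xCtrl replicate 2). The count for the 3xSR effect less the SRSF3-OE effect, 4453, was 2940 with only the groups compared and 7070 with the GC trend removed. With total counts alone, the share of higher calls moved from 49.2% to 36.7% in the libraries labelled SRSF2-OE, from 51.6% to 32.1% in SRSF3-OE, from 50.7% to 35.3% for SRSF3-OE against SRSF7-OE, from 47.3% to 36.6% for those labelled SRSF2-OE against SRSF7-OE, and from 60.6% to 76.3% for the 3xSR effect less the SRSF3-OE effect. The median of all genes in SRSF3-OE moved from -0.025 to -0.14.

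Signs changed only for effects that had not passed the test, and of these values 1 passed: with the GC trend removed, the TGFB1 effect of 3xSR less that of SRSF7-OE was 0.22 (adjusted p = 0.0393, edgeR). With that removal the libraries labelled 3xSR gave 0.058 for ID1, 0.058 for ID2 and 0.13 for ID3, MYC-OE against 3xSR gave 0.026 for INHBA and -0.026 for ID1, SRSF3-OE gave 0.18 for ID1, SRSF7-OE gave 0.031 for TGFBI, the libraries labelled SRSF2-OE against SRSF3-OE gave -0.12 for TGFB1, and the 3xSR effect less that of SRSF7-OE gave 0.0068 for ID2. The MYC-OE effect less that of SRSF3-OE gave -0.052 for TGFB1, 0.029 for TGFB2 and -0.17 for ID1. With total counts alone ID1 was -0.0078 in MYC-OE, INHBA -0.010 in the libraries labelled SRSF2-OE, TGFB1 -0.049 between SRSF3-OE and SRSF7-OE, and INHBA 0.012 for the 3xSR effect less that of SRSF3-OE. With DESeq2's size factors TGFB1 was -0.00084 between the libraries labelled SRSF2-OE and SRSF3-OE.

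With 1 library left out at a time, the libraries labelled 3xSR spanned -0.012 to 0.20 for TGFB1, -0.012 to 0.071 for TGFBI, -0.084 to 0.019 for ID2 and -0.21 to 0.070 for ID3. MYC-OE spanned -0.15 to 0.17 for ID1 and -0.024 to 0.27 for ID3. The libraries labelled SRSF2-OE spanned -0.013 to 0.041 for INHBA, SRSF3-OE -0.21 to 0.28 for ID1 and SRSF7-OE -0.061 to 0.023 for TGFBI. For TGFB1 the span was -0.048 to 0.057 between the libraries labelled SRSF2-OE and SRSF3-OE, -0.057 to 0.13 between those labelled SRSF2-OE and SRSF7-OE, and -0.064 to 0.13 between SRSF3-OE and SRSF7-OE. The 3xSR effect less that of SRSF3-OE spanned -0.42 to 0.033 for ID1, and less that of SRSF7-OE -0.029 to 0.065 for TGFBI. The MYC-OE effect less that of SRSF3-OE spanned -0.26 to 0.20 for ID1.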
